A study of Mus musculus with 6 samples.

Results

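Schwann cells and sustentacular cells are the peripheral glia of the adrenal gland. Both arise from the neural crest. Schwann cells ensheath the axons that enter the gland, and some of them wrap an axon in myelin, while sustentacular cells extend thin processes around the chromaffin cells of the medulla. Neuregulin from axons acts on Schwann cells through a receptor pair of ErbB2 and ErbB3, and the transcription factor Sox10 is needed to specify and maintain the glial lineage. The genes described here are 8 of the 54532 in the deposited table: the transcription factors Sox10 and Foxd3, the receptor Erbb3, the cadherin Cdh19, the myelin gene Mbp, and S100b, Gfap and Fabp7, which encode cytoplasmic proteins of glia. They were chosen by symbol as known glial genes, and all 8 were matched to an Ensembl identifier and passed the filter on low counts.

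RNA from whole adrenal glands of mice was sequenced in 3 libraries labelled VEGF/LysM and 3 labelled WT, in a study of how macrophage-derived VEGF-A affects the whole gland. VEGF/LysM names the growth factor VEGF-A and the myeloid lysozyme gene LysM. The labels give no allele, strain, age, sex or treatment for either group. Nor do they state that replicates are different mice, so a p-value here reflects only sample-to-sample spread, possibly of technical origin. Library totals ran from 16476879 to 18671950 counts. Levels are CPM (counts relative to the library total, scaled by edgeR's TMM factors) unless said to be per length, and fold changes are VEGF/LysM over WT on the log2 scale. In a bulk sample, fewer glial cells and less RNA per glial cell cannot be told apart.

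WT replicate 3 stood apart from the other libraries. A list of 16 hepatocyte genes, 15 of them matched, gave sums of 253 to 1068 CPM in VEGF/LysM and of 377 to 90609 CPM in WT, the top value being WT replicate 3. All 15 were at least 2-fold above every other library there. Alb, serum albumin, had its next highest level, 169 CPM, in VEGF/LysM replicate 3, against 51376 CPM in WT replicate 3. In replicates 1 and 2 of both groups Alb stood at 1.06 CPM or less. Cyp2e1, another gene of the list, stood at 124 to 327 CPM in those libraries and made up much of their sums. Genes of the adrenal gland itself were lower in WT replicate 3. The 6 adrenal cortex genes summed to 22102 CPM there, against 32441 to 41256 CPM in the other libraries. The 12 chromaffin cell genes summed to 4027 CPM there, against 5594 to 9743 CPM. Fold changes of the glial genes are therefore also given without WT replicate 3 where that turned their direction or moved them by over 1.5 times. The part of these lower sums in the glial levels of WT replicate 3 was not tested.

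The glial genes were present in every library, at low levels. The fewest counts of any of them were 7, for Fabp7, and the most were 1462, for Erbb3. Markers of glia of the central nervous system were near 0: the list of 6 summed to 0.353 to 1.10 CPM in VEGF/LysM and to 0.114 to 1.41 CPM in WT. Of these, Olig2, a transcription factor of oligodendrocytes, had 0 counts in every library. Among 7 melanocyte genes, another lineage that uses Sox10, Tyrp1 and Slc45a2 had 0 counts in every library, and the list summed to 6.53 to 13.1 CPM in VEGF/LysM and to 9.21 to 11.3 CPM in WT. Oca2 was the most abundant of the 7 in each library, at 4.47 to 10.4 CPM in VEGF/LysM and 4.60 to 9.43 CPM in WT.

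**Figure D1:**
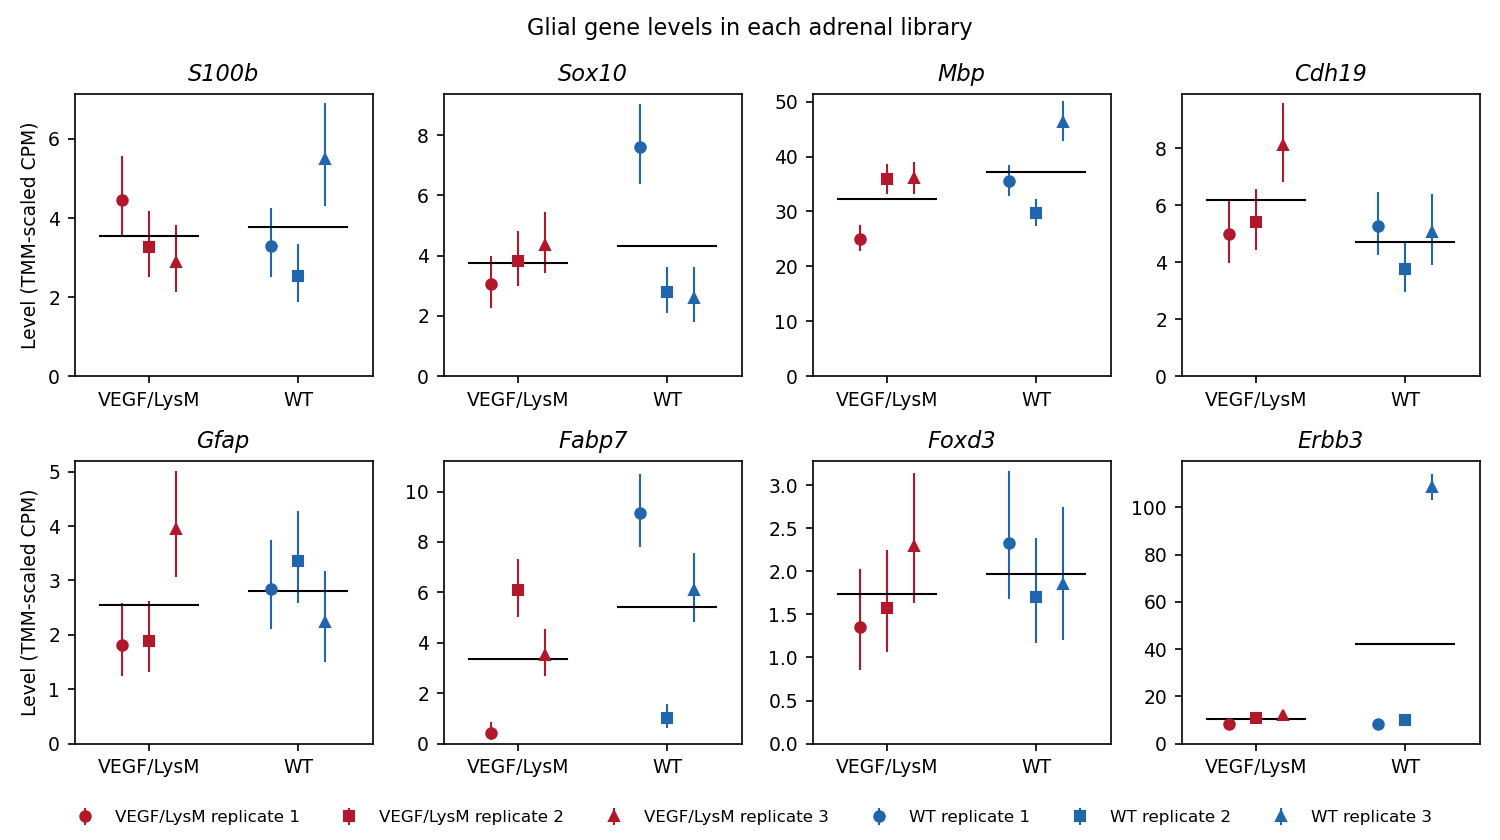
Level of each of the 8 glial genes in TMM-scaled CPM (vertical axes, each from 0) in the 3 VEGF/LysM libraries (red) and the 3 WT libraries (blue); bars are exact 95% Poisson intervals of the count, which cover counting error only, and black lines are group means. Erbb3 stands at 108.6 CPM in WT replicate 3 against 8.25 to 12.1 CPM elsewhere, and Fabp7 is lowest in VEGF/LysM replicate 1 and WT replicate 2.

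No glial gene of the 8 differed significantly in VEGF/LysM libraries relative to WT. With Benjamini-Hochberg adjustment over 16300 genes, the quasi-likelihood test of edgeR called 0 genes in all, or 0% of those tested, and 0 of the 8. An unadjusted p under 0.05 was found for 459 genes, 2.82% of those tested, and for 0 of the 8. DESeq2 also called 0 genes, with 542 at that unadjusted level, and limma-voom called 0, with 224. Without WT replicate 3, edgeR called 1 of 16659 genes, or 0.006%, and again 0 of the 8. The adjusted p of each of the 8 was 0.999 in edgeR's test. The VEGF/LysM and WT libraries overlapped for all 8, while 5.95% of all genes tested had groups that did not overlap, 3.54% with VEGF/LysM above WT and 2.41% with VEGF/LysM below WT. The log2 fold change was above 0 for Cdh19 alone and below 0 for the other 7, with a median of -0.19, against 0.0013 over all genes tested. Without WT replicate 3, 3 of the 8 were above 0 (S100b, Cdh19 and Erbb3) and 5 below 0, with a median of -0.12, against 0.0080 over all genes tested.

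Sox10, the lineage transcription factor (chromosome 15, 79154908 to 79165240, minus strand, GRCm38), stood at 3.05, 3.84 and 4.36 CPM in VEGF/LysM replicates 1 to 3, against 7.62, 2.78 and 2.60 CPM in WT replicates 1 to 3. WT replicate 1 was the highest of the 6 libraries and the other 2 WT libraries were the lowest, so the VEGF/LysM values lay inside the WT range. The log2 fold change was -0.21 with a 95% interval of -1.33 to 0.91. Without WT replicate 1 it was 0.48, so the direction rests on that library. It was -0.47 without WT replicate 3 and -0.45 without WT replicate 2. The exact Poisson intervals of the 3 VEGF/LysM libraries ended at 5.47 CPM or lower, and that of WT replicate 1 ran from 6.38 to 9.03 CPM. These intervals cover counting error only.

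Foxd3, a forkhead transcription factor of the neural crest and of early glia, is a gene of 1 exon (chromosome 4, 99656299 to 99658622, plus strand). It stood at 1.35, 1.58 and 2.30 CPM in VEGF/LysM and at 2.33, 1.70 and 1.86 CPM in WT. WT replicate 1 and VEGF/LysM replicate 3 were the highest libraries, and the groups overlapped. These values rest on 23 to 41 counts per library, and the exact Poisson intervals of all 6 libraries overlapped. The log2 fold change of Foxd3 was -0.17 with a 95% interval of -0.98 to 0.63. Leaving out 1 library moved it to between -0.42 (without VEGF/LysM replicate 3) and -0.028 (without WT replicate 1).

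Cdh19, a cadherin of Schwann cells and their precursors (chromosome 1, 110888326 to 110977584, minus strand), stood at 4.98, 5.42 and 8.12 CPM in VEGF/LysM and at 5.29, 3.76 and 5.05 CPM in WT. The VEGF/LysM mean was 6.17 ± 1.70 CPM and the WT mean 4.70 ± 0.82 CPM (SD, n = 3 each). VEGF/LysM replicate 3 was the highest library and WT replicate 2 the lowest, and the groups overlapped. The log2 fold change was 0.39 with a 95% interval of -0.31 to 1.10, or 0.15 without VEGF/LysM replicate 3 and 0.26 without WT replicate 2. The sum of 12 chromaffin cell genes was also highest in VEGF/LysM replicate 3: 5978, 6177 and 9743 CPM in VEGF/LysM and 7293, 5594 and 4027 CPM in WT. Of the 12, 7 were highest in VEGF/LysM replicate 3, 4 in WT replicate 1 and 1 in VEGF/LysM replicate 1. The part of the chromaffin genes in the level of Cdh19 was not tested.

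Mbp, myelin basic protein (chromosome 18), had the highest mean level of the 8 per length over the 5 libraries other than WT replicate 3, though Fabp7 was above it in VEGF/LysM replicate 2 and WT replicate 1. It stood at 25.03, 35.9 and 36.0 CPM in VEGF/LysM, against 35.6, 29.8 and 46.3 CPM in WT. WT replicate 3 was the highest library and VEGF/LysM replicate 1 the lowest. The log2 fold change was -0.20 with a 95% interval of -0.74 to 0.34, and -0.020 (-0.48 to 0.44) without WT replicate 3. The Mbp gene also gives transcripts in lymphoid cells, which gene-level counts do not separate from those of myelin. The lymphocyte list of 9 genes summed to 102 to 148 CPM in VEGF/LysM and to 172 to 1208 CPM in WT, highest in WT replicate 3. All 9 were at least 2-fold above every other library there. The part of lymphocyte transcripts in the Mbp level of that library was not tested.

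S100b, a calcium-binding protein of Schwann, sustentacular and other glial cells, lies on chromosome 10 (76253853 to 76261159, plus strand). It stood at 4.46, 3.26 and 2.88 CPM in VEGF/LysM and at 3.30, 2.52 and 5.50 CPM in WT. WT replicate 3 was the highest library and WT replicate 2 the lowest, so the VEGF/LysM values lay inside the WT range. Its log2 fold change was -0.089, with a 95% interval of -0.98 to 0.80. Its direction turned without WT replicate 3, to 0.28 (-0.53 to 1.08). It turned also without VEGF/LysM replicate 3, to 0.038, and was -0.31 without either VEGF/LysM replicate 1 or WT replicate 2. Adipocytes also express S100b, and the 2 libraries with the highest S100b had the lowest sums of the 9 adipocyte genes. Those genes summed to 2845, 6152 and 5894 CPM in VEGF/LysM replicates 1 to 3 and to 5581, 5497 and 3826 CPM in WT replicates 1 to 3. The part of adipocytes in the S100b level was not tested.

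Gfap, the intermediate filament protein of non-myelinating Schwann cells and other glia (chromosome 11, 102887336 to 102900912, minus strand), had the lowest mean level of the 8 per length, though not the lowest level in every library. It stood at 1.82, 1.89 and 3.94 CPM in VEGF/LysM and at 2.84, 3.35 and 2.23 CPM in WT. VEGF/LysM replicate 3 was the highest library and the other 2 VEGF/LysM libraries were the lowest, so the WT values lay inside the VEGF/LysM range. On the log2 scale the difference was -0.14, with a 95% interval of -1.09 to 0.81. It was -0.29 without WT replicate 3 and -0.60 without VEGF/LysM replicate 3, and its direction turned when any of 3 others was left out: WT replicate 2 or either of VEGF/LysM replicates 1 and 2.

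Fabp7, the brain-type fatty acid-binding protein of Schwann cell precursors and satellite glia (chromosome 10, 57784881 to 57788450, plus strand), varied most among the libraries outside WT replicate 3. It stood at 0.410, 6.10 and 3.53 CPM in VEGF/LysM, from 7, 116 and 60 counts, against 9.16, 1.03 and 6.09 CPM in WT, from 161, 20 and 82 counts. Each group thus held 1 library of 1.03 CPM or less and 2 libraries of 3.53 CPM or more. The highest level was 22.3-fold the lowest, and the exact Poisson intervals of those libraries did not meet: VEGF/LysM replicate 1 had 0.165 to 0.846 CPM and WT replicate 1 had 7.80 to 10.7 CPM. Its log2 fold change was -0.69, with a 95% interval of -3.03 to 1.65, the widest of the 8, and it moved to -0.064 without WT replicate 1, -0.19 without VEGF/LysM replicate 1, -1.18 without WT replicate 2 and -1.48 without VEGF/LysM replicate 2.

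Over the 5 libraries other than WT replicate 3, the highest Fabp7 level was also 22.3-fold the lowest. The same ratio was 1.44 for Mbp, 1.46 for Erbb3, 1.73 for Foxd3 and 1.76 for S100b. It was 2.16 for Cdh19, 2.17 for Gfap and 2.74 for Sox10, against a median of 1.51 over all genes tested. Fabp7 alone among the 8 reached a ratio of 4, a limit set after the values were seen, as 6.34% of all genes tested did.

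The summed level of nerve fibre and ganglion neuron genes was highest and lowest in the same libraries as Fabp7. The list of 12 ganglion neuron genes summed to 235, 413 and 435 CPM in VEGF/LysM replicates 1 to 3, against 846, 239 and 484 CPM in WT replicates 1 to 3. VEGF/LysM replicate 1 and WT replicate 2, the 2 libraries lowest in Fabp7, were the 2 lowest for 11 of the 12 genes. The exception was Npy, a neuropeptide, which was lowest in WT replicate 3. WT replicate 1 was the highest library for 10 of the 12, and VEGF/LysM replicate 3 for the other 2. In the test between groups, 0 of its 12 genes passed, 1 was above 0 and 11 below 0, with a median log2 fold change of -0.93 against 0.0013 over all genes tested. The part of nerve or ganglion tissue in the Fabp7 level of a library was not tested.

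Likeness of 2 genes was measured as the root-mean-square difference of their log2(CPM + 0.5) values, each centred on its own mean over the 6 libraries. It also reflects how much each gene varied, so 2 genes that varied little are close whichever library each was highest in. Candidates were 11686 genes of at least 5 CPM on average; 5 of the 8 glial genes, Sox10 and Fabp7 among them, averaged less, and values between glial genes were computed without that minimum. With Fabp7, a gene added to this comparison after its values were seen, the closest were Nefl at 0.318, Gap43 at 0.369, Ngfr at 0.422, Ret at 0.435 and Stmn2 at 0.437 log2 units. Nefl encodes the light neurofilament chain, Gap43 a protein of growing axons, Ngfr the low-affinity neurotrophin receptor of Schwann cells and neurons, Ret the receptor of GDNF-family ligands, and Stmn2 a tubulin-binding protein of neurons. Nefl, for example, stood at 0.938, 8.94 and 6.47 CPM in VEGF/LysM and at 19.4, 1.19 and 13.2 CPM in WT. The glial gene closest to Fabp7 was Mbp, at 1.01 log2 units. The glial genes are few beside the 11686 candidates, so the closest values in the 2 pools cannot be compared, here or below.

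Sox10 had a different set of closest genes. They were Pcsk1n at 0.0722, Bex2 at 0.110, Fbxo2 at 0.119, Rit2 at 0.137 and Hand2 at 0.155 log2 units. Pcsk1n encodes a granin-like inhibitor of a prohormone convertase and Hand2 a transcription factor of sympathetic and chromaffin cells. Pcsk1n stood at 116, 133 and 145 CPM in VEGF/LysM and at 232, 92.9 and 91.0 CPM in WT, so it too was highest in WT replicate 1 and lowest in the other 2 WT libraries. Among the 8 glial genes, Foxd3 was closest to Sox10, at 0.361 log2 units. The closest pairs within the 8 were Mbp with Foxd3 at 0.238 and Gfap with Foxd3 at 0.239 log2 units, and every pair with Fabp7 or Erbb3 differed by at least 1.01. The close pairs did not share a highest library: it was WT replicate 3 for Mbp, VEGF/LysM replicate 3 for Gfap and WT replicate 1 for Foxd3.

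**Figure D2:**
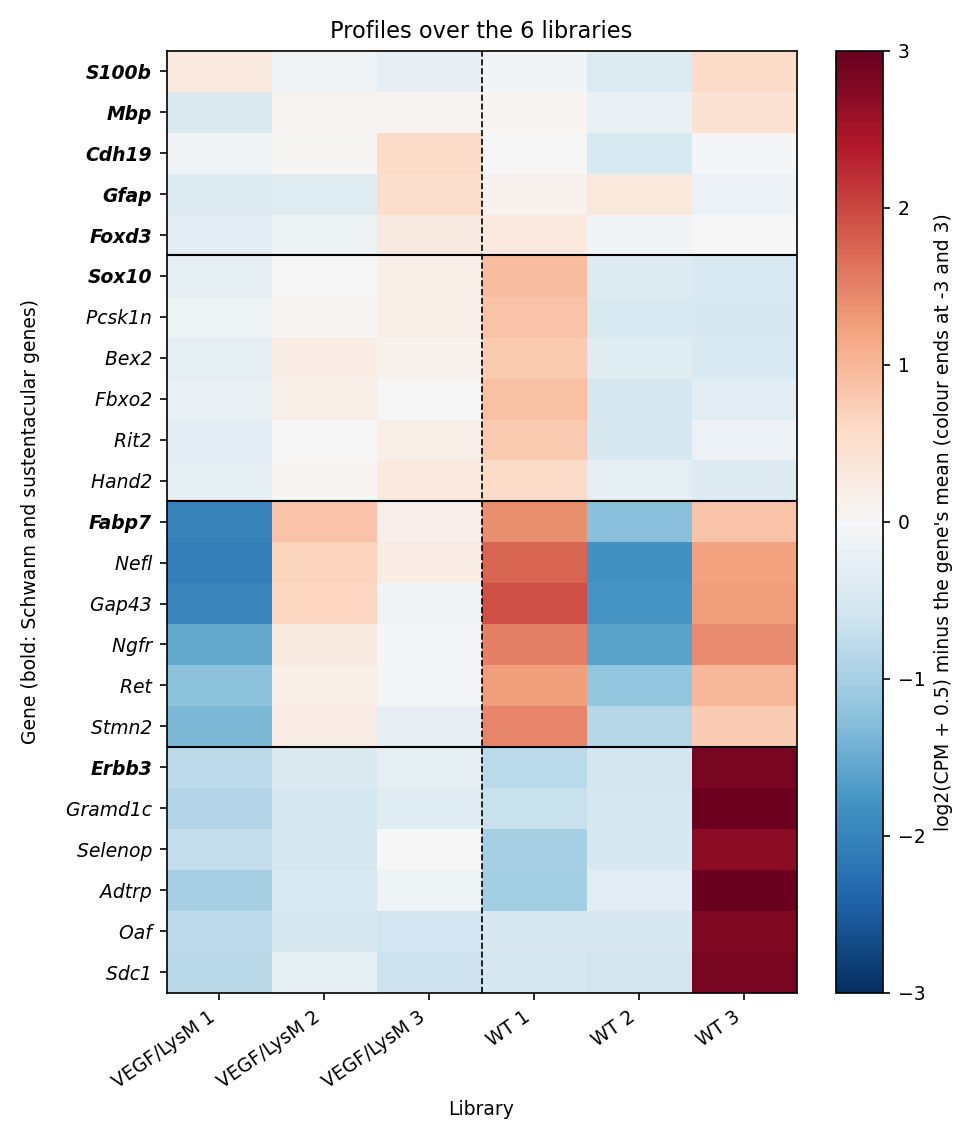
Each row is a gene and each column a library (VEGF/LysM left of the dashed line, WT right of it); colour is log2(CPM + 0.5) minus the gene's mean over the 6 libraries. Under Sox10, Fabp7 and Erbb3 stand the 5 genes closest to each; Fabp7 and its 5 are low in VEGF/LysM replicate 1 and WT replicate 2, and Erbb3 and its 5 are high in WT replicate 3.

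The start regions of Fabp7, S100b and Gfap are shown because these genes are used as markers of glia. Whether their letters bear on how these genes varied between libraries was not tested. RefSeq (GRCm38.p6) gave a window of 300 bases, 250 before and 50 after the gene's start, for 4 of the 8 genes, the other being Foxd3. The Fabp7 window is chr10:57784673-57784972 (plus strand), the S100b window chr10:76253586-76253885 (plus strand) and the Gfap window chr11:102897151-102897450 (minus strand). The RefSeq start of Gfap lies inside the annotated gene and not at its end. That of Fabp7 also lies inside the annotated gene, near its start, and that of S100b lies shortly before the annotated gene. Positions are counted from the RefSeq start. Capitals mark CCAAT on either strand and a SOX-type motif, both chosen after these windows had been read. The SOX-type motif was searched on both strands as 2 bases that are each A or T, then CAA, then 1 base that is A or T, then G.
Fabp7: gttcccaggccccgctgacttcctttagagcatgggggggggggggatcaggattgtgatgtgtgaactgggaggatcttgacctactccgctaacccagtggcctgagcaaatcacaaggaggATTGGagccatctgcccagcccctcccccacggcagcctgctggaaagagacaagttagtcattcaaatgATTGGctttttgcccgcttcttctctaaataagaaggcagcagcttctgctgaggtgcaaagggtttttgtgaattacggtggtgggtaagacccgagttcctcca
S100b: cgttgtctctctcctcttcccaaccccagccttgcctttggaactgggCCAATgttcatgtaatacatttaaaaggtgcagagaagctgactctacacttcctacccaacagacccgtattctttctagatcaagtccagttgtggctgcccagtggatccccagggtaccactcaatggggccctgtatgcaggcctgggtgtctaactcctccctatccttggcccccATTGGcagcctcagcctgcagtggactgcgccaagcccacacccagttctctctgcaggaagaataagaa
Gfap: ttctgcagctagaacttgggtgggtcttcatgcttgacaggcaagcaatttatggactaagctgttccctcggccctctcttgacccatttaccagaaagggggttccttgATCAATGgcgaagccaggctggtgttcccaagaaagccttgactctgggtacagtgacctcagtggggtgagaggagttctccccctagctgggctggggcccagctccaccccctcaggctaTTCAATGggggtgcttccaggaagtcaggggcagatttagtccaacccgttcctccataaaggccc

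Fabp7 and S100b each held CCAAT at 2 places, at positions -126 and -56 and at -202 and -20 from the start. Gfap held the SOX-type motif at 2 places, as ATCAATG at -139 and TTCAATG at -16. The motifs did not overlap each other. CCAAT occurs in 37.4% and the SOX-type motif in 24.6% of 32851 such windows. TATAAA was searched as well. It occurs in 13.6% of them and was in none of the 4 windows of glial genes. The Foxd3 window held none of these motifs and is not printed. G and C make up 65.7% of its bases, against 54.0% for Fabp7, 53.7% for S100b, 55.7% for Gfap and a median of 52.7% over all windows. A match describes letters only, and the absence of one says only that these letters are not in this window.

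Erbb3, the receptor through which Schwann cells sense axonal neuregulin, was high in WT replicate 3 and even among the other libraries. The gene lies on chromosome 10 (128567523 to 128589652, minus strand). It stood at 8.27, 10.8 and 12.1 CPM in VEGF/LysM, against 8.25, 9.89 and 108.6 CPM in WT. WT replicate 3 was 8.998-fold above the next library, and its log2 ratio to the mean of WT replicates 1 and 2 was 3.51. For the other 7 genes that log2 ratio ran from -0.88 for Sox10 to 0.81 for S100b, with a median of -0.010 over all genes tested. Erbb3 alone among the 8 was at least 2-fold above every other library in WT replicate 3, as 7.37% of all genes tested were. That limit too was set after the values were seen.

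With all 6 libraries the log2 fold change of Erbb3 was -2.02, the furthest from 0 of the 8, with a 95% interval of -4.34 to 0.31. Without WT replicate 3 it was 0.19, with an interval of -0.37 to 0.75. On all 6 libraries it was -0.95 with a replicate block and -0.87 with limma-voom, so its size depended on the fit. The other scalings, the other filters and DESeq2 gave -2.03 to -1.78 on all 6 libraries. Hepatocytes and other epithelia also express Erbb3. All matched hepatocyte markers and some epithelial markers were high in the same library. Beside the hepatocyte sums above, the 13 epithelial genes summed to 31.95 to 51.5 CPM in VEGF/LysM and to 43.0 to 426 CPM in WT. The highest sum was in WT replicate 3, where 5 of the 13 were at least 2-fold above every other library, 3 were above by less than that and 5 were below the highest of the others. Krt8, a keratin of simple epithelia, stood at 0.293, 3.21 and 1.18 CPM in VEGF/LysM and at 0.341, 1.19 and 186 CPM in WT. Spp1, osteopontin, which epithelia and other cells secrete, was not high there, with 23.4, 28.3 and 25.1 CPM in VEGF/LysM and 32.2, 29.9 and 26.8 CPM in WT. The 9 kidney tubule genes, all at least 2-fold above every other library in WT replicate 3, summed to 0.879 to 3.88 CPM in VEGF/LysM and to 1.02 to 40.0 CPM in WT. The part of liver, kidney or epithelial transcripts in the Erbb3 level was not tested.

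The genes closest to Erbb3 were Gramd1c at 0.0941, Selenop at 0.164, Adtrp at 0.164, Oaf at 0.187 and Sdc1 at 0.187 log2 units. Selenop encodes the selenoprotein that the liver releases into plasma, and Sdc1 a syndecan of epithelial and plasma cells. Selenop stood at 218, 254 and 364 CPM in VEGF/LysM and at 182, 260 and 2322 CPM in WT. None of the other 7 glial genes came closer to Erbb3 than 1.08 log2 units, the value for S100b.

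**Figure D3:**
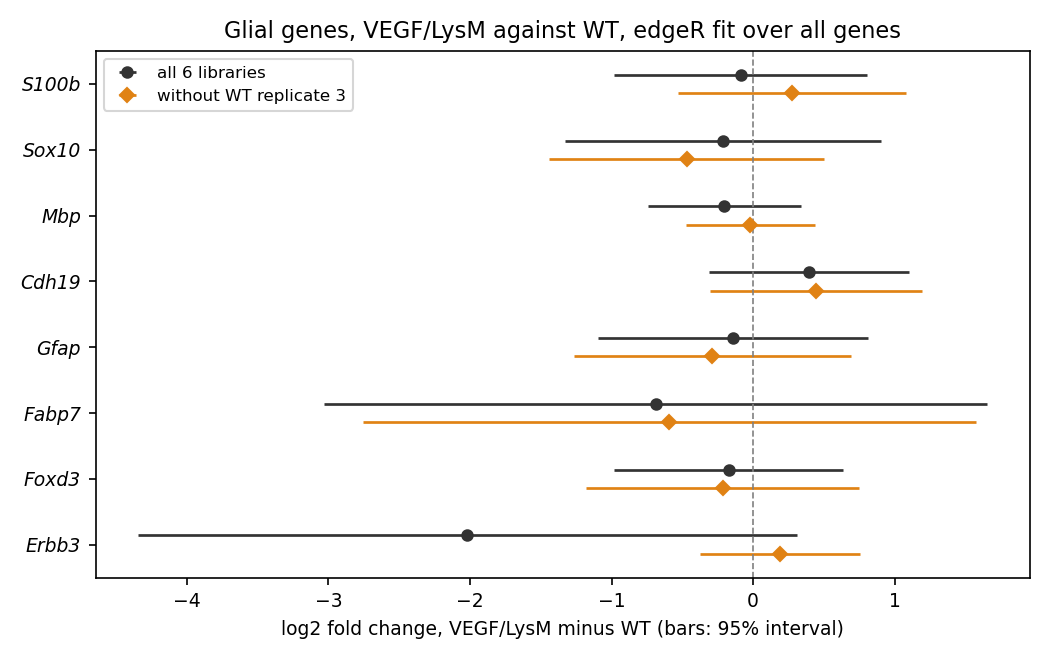
Log2 fold change of each glial gene, VEGF/LysM minus WT, with its 95% interval (horizontal axis), from edgeR's fit over all genes with all 6 libraries (black circles) and without WT replicate 3 (orange diamonds). All intervals include 0, and the Erbb3 value is 0.19 without WT replicate 3 and -2.02 with it.

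Per length, the order of the 8 genes depended on WT replicate 3. Over the other 5 libraries the level per kb of annotated exon was 3.83 ± 0.58 CPM per kb for Mbp, 3.24 ± 2.91 for Fabp7, 2.21 ± 0.49 for S100b and 1.64 ± 0.28 for Erbb3 (SD, n = 5). It was 1.42 ± 0.64 CPM per kb for Sox10, 1.29 ± 0.37 for Cdh19, 0.796 ± 0.190 for Foxd3 and 0.657 ± 0.218 for Gfap (SD, n = 5). The ranges of mean ± SD overlapped for every pair of neighbours in this order. Such overlap ignores that both genes of a pair were measured in the same libraries. Cdh19 was above its neighbour Foxd3 in every library, with 0.879 against 0.732 CPM per kb in WT replicate 2 and 1.90 against 0.988 in VEGF/LysM replicate 3. The other neighbouring pairs changed order in some libraries. In WT replicate 3 Erbb3 came first, at 18.05 CPM per kb, with Mbp at 5.47. Length here is that of all annotated exons of a gene merged, 8469 bases for Mbp and 1250 for Fabp7. The length of the transcripts present can be shorter, and the order under another length was not tested.

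**Figure D4:**
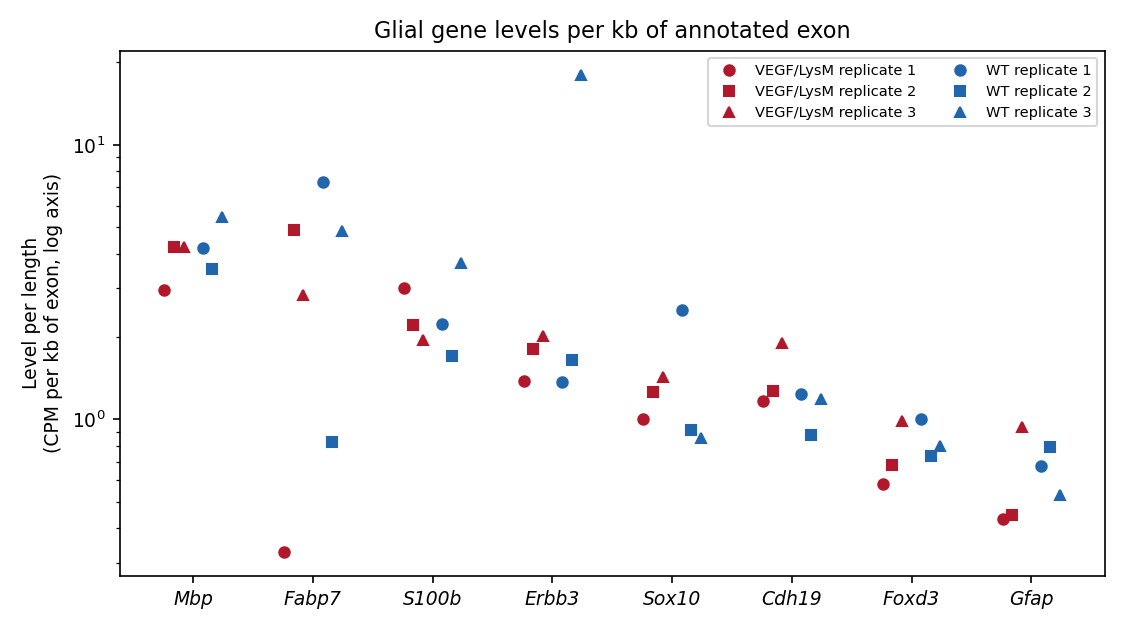
Level of each glial gene per kb of annotated exon (CPM per kb, log axis) in the 3 VEGF/LysM libraries (red, left) and the 3 WT libraries (blue, right), ordered by the mean over the 5 libraries other than WT replicate 3. Mbp leads that order and Gfap ends it; the triangle at 18.05 CPM per kb is Erbb3 in WT replicate 3.

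Other genes of myelinating Schwann cells did not pass the test either. Of 16 such genes 12 were tested, 0 passed, 4 were above 0 and 8 below 0, with a median log2 fold change of -0.044. Cnp, an enzyme of myelin, stood at 57.3, 59.2 and 45.3 CPM in VEGF/LysM and at 65.8, 58.0 and 72.1 CPM in WT, a log2 fold change of -0.28 ± 0.16 (SE). Pmp22, a membrane protein of peripheral myelin that many other cells make, averaged 140 ± 12.2 CPM in VEGF/LysM and 142 ± 39.4 CPM in WT (SD, n = 3 each). Dhh, the hedgehog ligand of Schwann cells, ranged over 1.29 to 1.88 CPM in VEGF/LysM and 1.41 to 3.13 CPM in WT, and its log2 fold change was -0.56 ± 0.39 (SE).

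Gjb1, which encodes the gap junction protein connexin 32 of myelinating Schwann cells and hepatocytes, had the pattern of Erbb3 in a stronger form. It had 0, 1 and 40 counts in VEGF/LysM and 0, 0 and 7290 counts in WT, and the filter on low counts removed it from the test. It set the sum of the list in WT replicate 3, which was 789 CPM against 254 to 321 CPM in the other libraries. Without Gjb1 the list summed to 254, 284 and 277 CPM in VEGF/LysM and to 321, 296 and 248 CPM in WT.

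Of 20 genes of non-myelinating Schwann cells and satellite glia, 18 were tested and 0 passed, with 6 above 0, 12 below 0 and a median of -0.10. Sparcl1, a secreted matrix protein of glia and vessels, showed 0.099 ± 0.24 (log2 fold change ± SE), and Matn2, a matrix protein of Schwann cells, showed -0.014 ± 0.23. Ngfr stood at 8.27, 30.1 and 23.9 CPM in VEGF/LysM and at 72.6, 7.94 and 68.0 CPM in WT, so its groups overlapped and its log2 fold change of -1.25 carried an SE of 0.80.

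The neuregulin ligands, ErbB receptors and the proteases that shed the ligands numbered 11. All 11 were tested and 0 passed, with 7 above 0, 4 below 0 and a median of 0.17. Nrg1, the axonal ligand of Schwann cells, stood at 1.93, 1.73 and 2.47 CPM in VEGF/LysM and at 1.88, 1.34 and 1.86 CPM in WT. Erbb2, the partner of Erbb3 in Schwann cells, stood at 12.9, 11.1 and 9.71 CPM in VEGF/LysM and at 9.55, 11.5 and 8.17 CPM in WT, so it was lowest where Erbb3 was highest. Nrg1 and Erbb2 are named here after their values were seen. Adam10, Adam17 and Bace1, membrane proteases that cut neuregulins, had log2 fold changes of 0.079 ± 0.17, 0.17 ± 0.13 and 0.28 ± 0.15 (SE).

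Egfr, the receptor of epidermal growth factor, which hepatocytes make in large amounts, was highest in WT replicate 3, as Erbb3 was. It stood at 14.5, 13.8 and 12.8 CPM in VEGF/LysM and at 10.1, 9.84 and 223 CPM in WT, with a log2 fold change of -2.56 ± 1.20 (SE). The list summed to 551 CPM in WT replicate 3 against 201 to 267 CPM in the other libraries. Without Erbb3 and Egfr it summed to 244, 222 and 237 CPM in VEGF/LysM and to 183, 236 and 219 CPM in WT.

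Of 14 transcription factors of glia and neural crest, 10 were tested and 0 passed, with 5 above 0, 5 below 0 and a median of -0.053. Pax3, a factor of early neural crest and immature Schwann cells, had 0 counts in every library. Zeb2, a factor that Schwann cells and macrophages use, stood at 141, 113 and 146 CPM in VEGF/LysM and at 102, 135 and 86.2 CPM in WT, a log2 fold change of 0.31 ± 0.20 (SE). Nab1 and Nab2, partners of the myelin regulator Egr2, had 0.062 ± 0.17 and -0.17 ± 0.17. Sox5, a relative of Sox10, had -0.36 ± 0.37.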

How the data were processed

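Per the labels' protocols, RNA of fresh adrenal glands was made into libraries with the Smartseq II protocol, which does not mark strand. The build mm10 and the tools DESeq2 1.36.0 and kallisto are named, with no role, per the submitters' processing notes. The deposited table holds whole-number counts per gene, not normalised. Columns were matched to samples by title, and symbols came from a gene name table.

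The 8 genes and all lists were chosen with earlier results of these data known. Genes were filtered with filterByExpr (minimum count 10), scaled by TMM and fitted with edgeR 4.0.16 (quasi-likelihood, group as the only term) under R 4.3.3, with p adjusted over 16300 genes and a threshold of 0.05. The 95% intervals come from that fit, and Poisson intervals cover counting error only. An exact permutation of 3 against 3 cannot go below p = 0.1. The steps were tested on simulated counts.

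GENCODE's GRCm38 annotation, on the same assembly as mm10, gave exon lengths and coordinates. In it, no exon of the 8 shares bases with another gene apart from 89 in Foxd3, under an annotated microRNA with 0 counts. blastn 2.17.0 found no other gene with a transcript match of 95% identity over 100 bases. By rule, the genes named from a list were taken from its 4 most abundant and 2 of smallest p for glial lists, and its 2 most abundant for other cell types, with the 5 genes closest to Sox10 and to Erbb3. Genes named because they had 0 counts, and those said to be named after their values were seen, are outside this rule. A further 2 glial genes of the lists are not reported here. They were left out of the list counts, list sums and likeness search after their counts had been seen, so those values describe the lists without them. The alternatives were other scalings, filters and tools (limma-voom 3.58.1, DESeq2 1.42.0), a replicate block, and leaving out libraries.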

Additional observations from a re-analysis of the deposited data

How the results depend on the processing

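Leaving out each library in turn, edgeR called 0 to 1 genes and 0 to 0 of the 8 glial genes; the 1 gene, called without WT replicate 3, is not one of the 8. Every other alternative called 0 genes. Of 120 refitted log2 fold changes of the 8 genes, 110 kept their direction and 10 turned. None passed the threshold, though DESeq2 gave Erbb3 no adjusted p. In edgeR's test without WT replicate 1, 1 of the 8 had an unadjusted p under 0.05, as had 911 of 16871 genes. Without WT replicate 2 it was again 1 of the 8, beside 1279 of 16833 genes. S100b turned to 0.025 with library size only, 0.28 without WT replicate 3, 0.038 without VEGF/LysM replicate 3 and 0.41 without both replicates 3. Erbb3 turned to 0.19 without WT replicate 3 and 0.081 without both. Sox10 turned to 0.48 without WT replicate 1. Gfap turned to 0.032, 0.015 and 0.0054 without VEGF/LysM replicate 1, VEGF/LysM replicate 2 and WT replicate 2. Over the fits without 1 library, values ran from -0.31 to 0.28 for S100b, -0.47 to 0.48 for Sox10, -0.34 to -0.020 for Mbp, 0.15 to 0.51 for Cdh19, -0.60 to 0.032 for Gfap, -1.48 to -0.064 for Fabp7, -0.42 to -0.028 for Foxd3 and -2.50 to 0.19 for Erbb3.

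With a replicate block 0 genes were called (270 at an unadjusted p under 0.05, against 459 without it). With the block, the log2 fold change was -0.95 for Erbb3, -0.037 for Sox10, -0.037 for S100b and -0.22 for Gfap, and with limma-voom it was -0.87, -0.056, -0.0048 and -0.24 for the same genes. Deviations of same-numbered libraries correlated at 0.064, -0.0136 and 0.25. VEGF/LysM replicates 1 and 2 correlated best with another number, and VEGF/LysM replicate 3 with WT replicate 3. With 3 libraries per group, each centred on its group, these correlations cannot decide whether same-numbered libraries were paired. Per library, Foxd3 rests on 23 to 41 counts and Gfap on 30 to 67, which limits what these fits could detect.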
